A study of Mus musculus with 13 samples.

Results

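Homeostatic microglia genes are transcripts typical of resident microglia, in part shared with other macrophages. They were followed in cultures of mouse astrocytes given 1 of 3 small-molecule inhibitors. The set was fixed by name and holds 9 genes, Tmem119, Cx3cr1, P2ry12, Gpr34, Siglech, Olfml3, C1qa, Aif1 and Sall1. Among them, 7 are in at least 1 of the authors' deposited tables, which together list 1592 genes, and Siglech and Sall1 are in none. RNA was sequenced from 13 samples: 3 given SB431542, 3 given HLM006474, 3 given an inhibitor of RUNX1 and 4 given vehicle, each for 24 h. All groups were wild-type C57BL/6 astrocytes taken from retinas and optic nerves at postnatal day 1 to 3 and grown with 10% serum. Doses, the number of animals behind a culture and the purity of the cultures are not given in the labels, so that the spread behind the p-values is that of the samples sequenced and may be technical. SB431542 blocks the kinase activity of the TGF-beta and activin type I receptors, and HLM006474 blocks E2F transcription factors. The compound called the RUNX1 inhibitor here, whose code name the plots give, blocks RUNX1 acting with its partner CBFB.

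Microglia are the resident macrophages of the brain, retina and optic nerve. In mice many of their homeostatic genes depend on TGF-beta. This ligand brings together type II and type I receptors so that the type I kinase phosphorylates SMAD2 and SMAD3. These SMADs enter the nucleus and regulate transcription. Serum and astrocytes are both sources of TGF-beta in culture. Astrocyte cultures commonly carry microglia, and the genes here are used as markers of those cells. Which cells of the cultures made these transcripts was not tested.

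Each table gives, for the genes that passed the authors' limits, 1 compound against vehicle. A gene had to reach an adjusted p below 0.05 and to differ by 0.58 or more, up or down, on the log2 scale. Fold changes below are on the log2 scale, as value ± the authors' standard error, with adjusted p from the authors' DESeq2 Wald test over all genes tested. A negative value means lower with the compound than with vehicle. Values per sample were not analysed here, so the spread between replicates is seen only through these standard errors. The depth of the libraries is unknown.

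The level of the transcripts is given first. The mean normalised count over all libraries, in the authors' deposited tables, was 7075 for C1qa, 3567 for Cx3cr1, 828 for Tmem119, 827 for Olfml3, 255 for P2ry12, 199.9 for Aif1 and 187 for Gpr34. Divided by exonic length, C1qa stood at 6803 normalised counts per kb, Cx3cr1 at 792, Tmem119 at 358, Olfml3 at 134, Aif1 at 130.5, P2ry12 at 100.2 and Gpr34 at 89.4. For scale, the astrocyte genes Fabp7, a fatty acid binding protein, and Kcnj10, a potassium channel, stood at 15172 and 4419 normalised counts per kb. Transcripts of the set were thus measured alongside these astrocyte markers, C1qa at a level between Fabp7 and Kcnj10 per length and the other listed members below both. Only 2 of 16 astrocyte markers were listed for any compound. These levels therefore do not show which cells made the transcripts.

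SB431542 lowered 6 of the 9 genes and raised none. They were Tmem119, Cx3cr1, Olfml3, P2ry12, Gpr34 and C1qa. Over all 15169 genes tested, the share listed as lower was 2.64%. HLM006474 lowered 4 of the 9 and raised none, namely Tmem119, Aif1, P2ry12 and Olfml3, where 4.22% of 15169 genes tested were listed as lower. The RUNX1 inhibitor lowered 1 of the 9, Gpr34, where 2.32% of 13561 genes tested were listed as lower. The members were chosen with results of these data known, so these counts describe the 9 genes and test nothing about the set. In bulk RNA, fewer cells of a type and less RNA per cell cannot be told apart.

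**Figure D1:**
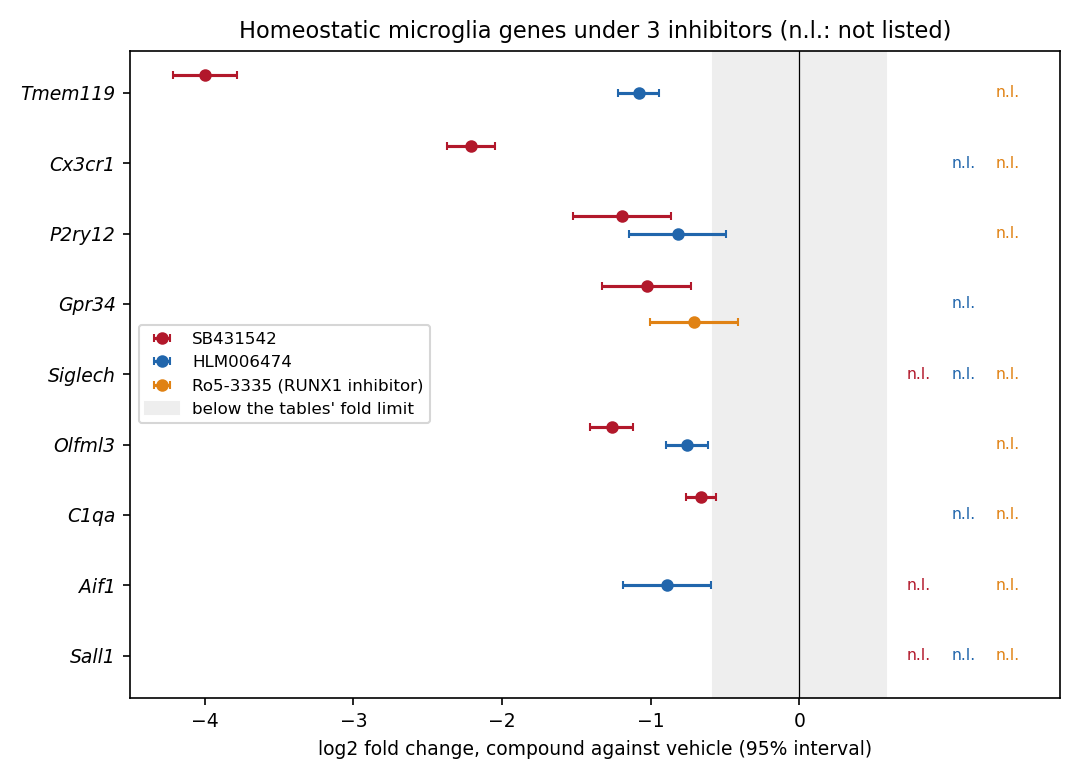
Log2 fold change of each gene against vehicle (points) with its 95% interval (bars), by compound. The grey band is the range under the tables' fold limit, and n.l. marks a gene that a compound's table does not list. Tmem119 at -4.00 and Cx3cr1 at -2.21 under SB431542 lie well left of the other values, which run between -1.26 and -0.66.

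Among cell surface genes, Tmem119 changed most. It encodes a single-pass membrane protein that is widely used to tell microglia from blood-derived macrophages. Under SB431542 it stood at -4.00 ± 0.11 in the authors' deposited table (DESeq2, adjusted p = 2.62e-291), which is 6.26% of the vehicle level with a 95% interval of 5.40% to 7.26%. That was the lowest adjusted p of all 748 genes in the table. By size of fall it ranked 10 among 401 lower genes, and the 9 genes below it had mean counts of only 5.12 to 73.9 with standard errors of 0.395 to 4.14. Under HLM006474 Tmem119 stood at -1.08 ± 0.070 in the authors' deposited table (DESeq2, adjusted p = 2.96e-50), or 47.3% of the vehicle level. It ranked 15 by adjusted p among the 856 genes of that table. The RUNX1 inhibitor table does not list it.

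Cx3cr1 encodes the receptor for fractalkine, a chemokine that neurons present to microglia. Under SB431542 it stood at -2.21 ± 0.081 in the authors' deposited table (DESeq2, adjusted p = 1.19e-161), which is 21.6% of the vehicle level with a 95% interval of 19.4% to 24.1%. Only 7 genes of that table had a lower adjusted p. Neither the HLM006474 nor the RUNX1 inhibitor table lists Cx3cr1.

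P2ry12 encodes the ADP receptor through which microglial processes are drawn to sites of injury. It stood at -1.19 ± 0.17 under SB431542 and at -0.82 ± 0.17 under HLM006474 in the authors' deposited tables (DESeq2, adjusted p = 7.84e-11 and 1.44e-05). These are 43.7% and 56.7% of the vehicle level, with 95% intervals of 34.7% to 55.0% and 45.2% to 71.1%. Gpr34, a receptor for lysophosphatidylserine, was the 1 gene of the set lower under both SB431542 and the RUNX1 inhibitor. It stood at -1.03 ± 0.15 under SB431542 and at -0.71 ± 0.15 under the RUNX1 inhibitor in the authors' deposited tables (DESeq2, adjusted p = 8.04e-10 and 5.08e-05), or 49.0% and 61.1% of the vehicle level.

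Of the secreted products, Olfml3, an olfactomedin-like glycoprotein, stood at -1.26 ± 0.075 under SB431542 and at -0.75 ± 0.072 under HLM006474 in the authors' deposited tables (DESeq2, adjusted p = 8.76e-62 and 1.84e-23). These are 41.6% and 59.3% of the vehicle level, and their 95% intervals, 37.6% to 46.1% and 53.8% to 65.4%, do not overlap. C1qa, a chain of the complement recognition protein C1q, was the most abundant member and the one least changed among those listed. It stood at -0.66 ± 0.052 under SB431542 in the authors' deposited table (DESeq2, adjusted p = 2.12e-35), or 63.2% of the vehicle level, with a 95% interval on the log2 scale of -0.76 to -0.56 that reaches the fold limit.

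Aif1 encodes the actin-bundling protein Iba1, the usual histological marker of microglia and macrophages. It was lower under HLM006474 alone among the tables, at -0.89 ± 0.15 in the authors' deposited table (DESeq2, adjusted p = 8.59e-08), or 53.9% of the vehicle level with a 95% interval of 43.9% to 66.2%. In the SB431542 table it is not listed. Sall1, a zinc finger transcription factor that maintains microglial identity in mice, and Siglech, a sialic acid binding lectin, are in no table, so neither their level nor their change was analysed here.

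**Figure D2:**
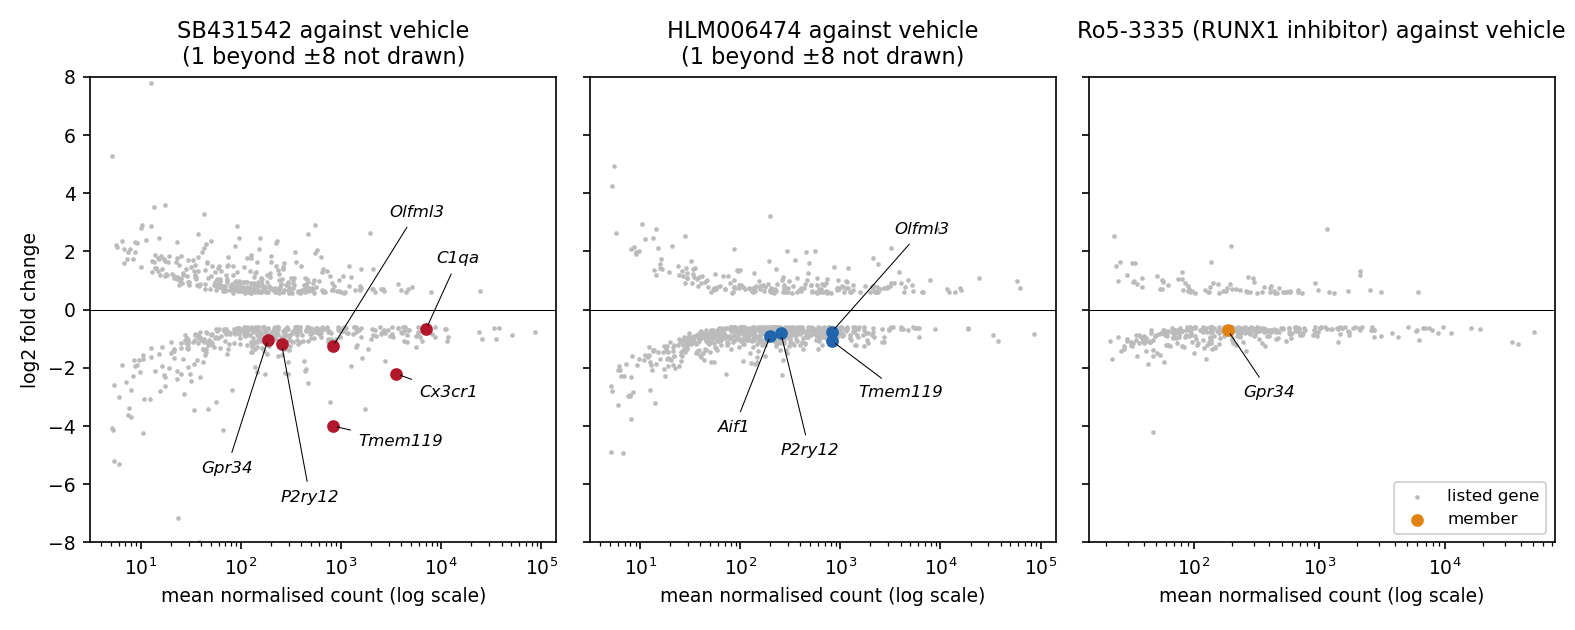
Each listed gene's log2 fold change against its mean normalised count (log scale), for SB431542, HLM006474 and the RUNX1 inhibitor against vehicle, with the members of the set in colour. Under SB431542 Tmem119 and Cx3cr1 fall below nearly all genes of similar count, while the members listed for HLM006474 and the RUNX1 inhibitor lie within the band of other lower genes.

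Group levels could be bracketed from the mean count and the fold changes, with an unlisted change taken as under 0.58 in size on the log2 scale and the mean taken over the 13 samples. Tmem119 had 66.8 to 88.5 normalised counts with SB431542, 504 to 669 with HLM006474 and 946 to 1595 with the RUNX1 inhibitor, against 1066 to 1414 with vehicle. Cx3cr1 had 737 to 1158 normalised counts with SB431542, against 3405 to 5354 with vehicle. For a listed gene, the compound's bracket is the vehicle bracket multiplied by the fold change. The gap between them therefore restates the fold change and is not separate support.

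Olfml3 had 389 to 495 normalised counts with SB431542 and 554 to 705 with HLM006474, against 933 to 1189 with vehicle. P2ry12 had 126 to 161 normalised counts with SB431542 and 164 to 209 with HLM006474, against 288 to 368 with vehicle. For either gene both compounds lie below vehicle by construction, since both genes are listed as lower. For P2ry12 the levels with SB431542 and HLM006474 do not differ beyond their error, as tested below. Gpr34 had 101 to 128 normalised counts with SB431542 and 126 to 159 with the RUNX1 inhibitor, against 206 to 261 with vehicle. Aif1 had 96.0 to 145 normalised counts with HLM006474, against 178 to 269.9 with vehicle. The brackets reflect only the unlisted changes and leave out the standard errors.

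**Figure D3:**
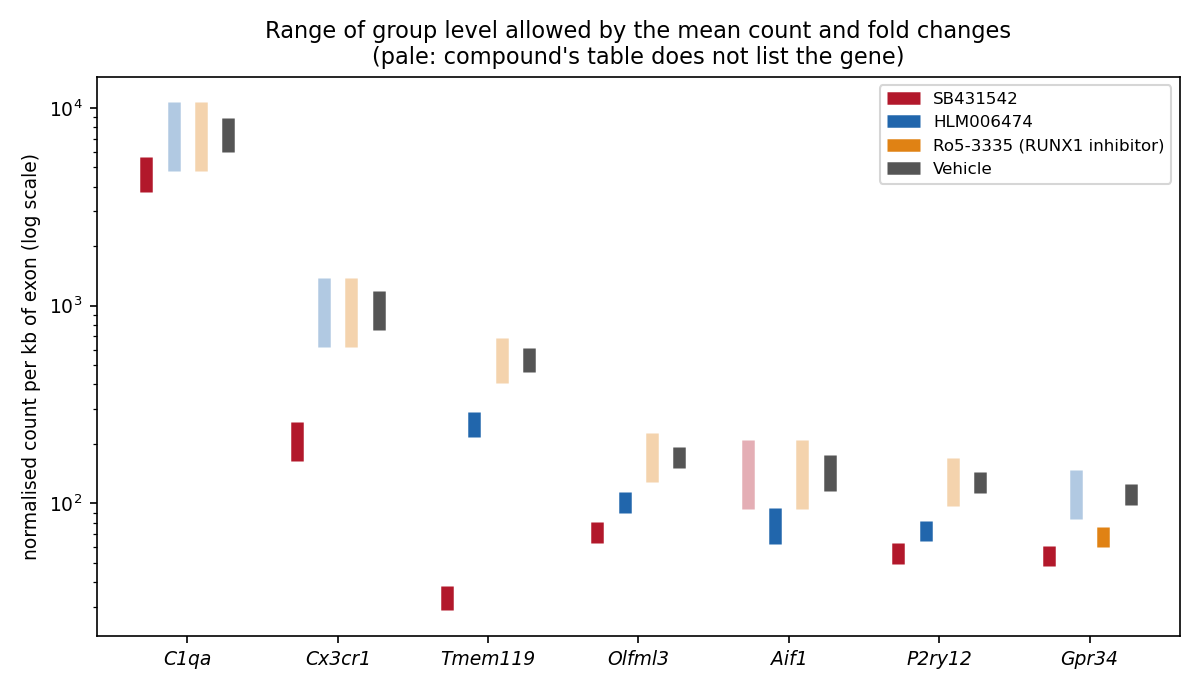
Bars span the normalised count per kb of exon (log scale) that the mean count and the fold changes allow in each group, for SB431542, HLM006474, the RUNX1 inhibitor and vehicle. Pale bars are compounds whose table does not list the gene. Bars are brackets, not errors. Tmem119 was the third most abundant of the listed members per length with vehicle and the least abundant with SB431542.

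SB431542 and HLM006474 were compared directly for the 3 members listed for both, by a 2-sided z test of the difference over all 161 genes in both tables, of which 32.9% differed at an adjusted p under 0.05. Tmem119 was lower with SB431542 by a difference of -2.92 ± 0.13 on the log2 scale (95% interval -3.17 to -2.66, z test, adjusted p = 2.30e-110). This was the second most negative of the 161 differences. Olfml3 differed by -0.51 ± 0.10 (95% interval -0.71 to -0.31, z test, adjusted p = 6.14e-06), also lower with SB431542. For P2ry12 the difference of -0.37 ± 0.24 did not pass (95% interval -0.84 to 0.09, z test, adjusted p = 0.240), and its interval holds both no difference and a lower level with SB431542. The doses of the compounds are not stated, and the comparison is of the treatments as given.

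**Figure D4:**
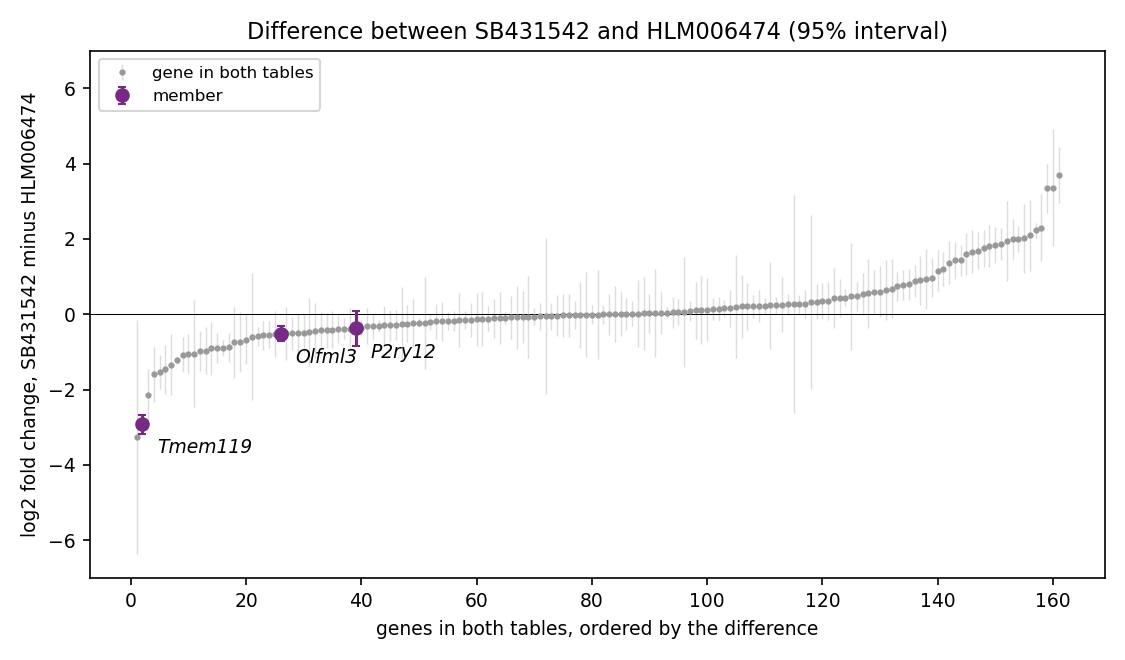
Difference of the log2 fold changes, SB431542 minus HLM006474, for the 161 genes in both tables, ordered by size, with 95% intervals. The members are in purple. Tmem119 at -2.92 is near the extreme left, and Olfml3 and P2ry12 lie in the lower part of the middle range.

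Between SB431542 and the RUNX1 inhibitor the only member listed for both was Gpr34, with a difference of -0.32 ± 0.22 (95% interval -0.74 to 0.11, z test, adjusted p = 0.452), where 17.2% of the 93 genes in both tables differed. No member was listed for both HLM006474 and the RUNX1 inhibitor. For members listed for 1 of 2 compounds, the listed change was set against the largest change the other table could have left out, a comparison chosen after the data were seen. Cx3cr1 fell under SB431542 by 1.63 more on the log2 scale than the HLM006474 table could have left out (z test, adjusted p = 2.24e-43, where 9.38% of 1280 such genes passed). Its fall exceeded the limit of the RUNX1 inhibitor table by the same 1.63 (z test, adjusted p = 1.01e-43, where 13.3% of 877 such genes passed). Tmem119 and Olfml3 under SB431542 exceeded the limit of the RUNX1 inhibitor table by 3.42 and 0.68 (z test, adjusted p = 2.60e-106 and 2.44e-09), and P2ry12 did not pass, with an excess of 0.61 (z test, adjusted p = 0.0738). Tmem119 under HLM006474 exceeded the RUNX1 inhibitor limit by 0.50 (z test, adjusted p = 3.46e-05, where 3.71% of 755 such genes passed). C1qa, Gpr34 and Aif1 passed no such comparison, nor did Olfml3 and P2ry12 between HLM006474 and the RUNX1 inhibitor, with adjusted p of 0.261 or more by the z test. For these, a response to 1 compound and not to the other was not shown.

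In GRCm38 with GENCODE M21, Tmem119 lies on chromosome 5 at 113793729 to 113800516, Cx3cr1 on chromosome 9 at 119901616 to 120069879 and P2ry12 on chromosome 3 at 59216272 to 59262871, all on the minus strand. Olfml3 lies on chromosome 3 at 103722222 to 103738001, C1qa on chromosome 4 at 136895917 to 136898803 and Aif1 on chromosome 17 at 35170991 to 35176068, also on the minus strand. Gpr34 lies on chromosome X at 13632089 to 13640858 on the plus strand. All are protein-coding, and at most 1.73% of the exonic bases of any of them are shared with another gene, in Cx3cr1 with the antisense transcript Gm33858. Gpr34 lies inside Cask and P2ry12 inside Med12l, each on the opposite strand, with 0 and 9 shared exonic bases. The annotated span of Cx3cr1 also overlaps several other genes. Among them are the protein-coding Csrnp1, Gorasp1 and Xirp1 on the same strand and Ttc21a and Wdr48 on the opposite strand, each with 0 shared exonic bases. Whether the authors' counting used strand is not given in the sources used here.

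Promoter sequence before the RefSeq start (GRCm38.p6) was matched for 6 of the 9 genes, all but Tmem119, C1qa and Gpr34. It is shown for the members lower under SB431542 in which a motif of the inhibited pathways was found. The search covered a window of 250 bases before the start, on either strand. The 6 genes have 8 windows, Sall1 more than 1, so counts of genes and shares of windows below are unlike measures. By GENCODE M21, the windows of Cx3cr1 and Siglech overlap an untranslated region of the gene itself. The P2ry12 window overlaps an untranslated region of Med12l. The SMAD motif CAGAC was found for 4 of the 6 genes, once each for Cx3cr1 and P2ry12 and also for Sall1 and Siglech, which no table lists, and it is in 42.2% of all 32851 promoter windows of that length. RUNX motif TGTGGT was found once for Cx3cr1 and also for Siglech, against 14.0% of windows, and E2F motif GCGGGAA once for Olfml3, against 3.82% of windows. The PU.1 motif GAGGAAG, the AP-1 motif TGANTCA and the TATA box TATAAA were in none of the members' windows, against 10.6%, 6.75% and 12.4% of all windows. The motifs do not overlap each other in these windows, and a match is a description of letters, not of binding. Capitals below mark the match, read 5′ to 3′ on the minus strand, the gene's own strand, and for SMAD and RUNX the match is the reverse complement of the motif.
Cx3cr1, SMAD, chr9:120068505-120068534: agcaatccccagGTCTGccacccaacagtc
Cx3cr1, RUNX, chr9:120068333-120068362: taaagatagggtACCACAcaggaaaccaga
P2ry12, SMAD, chr3:59263178-59263207: atgacatcgcagGTCTGctttggcaaaggc
Olfml3, E2F, whole window, chr3:103738002-103738251: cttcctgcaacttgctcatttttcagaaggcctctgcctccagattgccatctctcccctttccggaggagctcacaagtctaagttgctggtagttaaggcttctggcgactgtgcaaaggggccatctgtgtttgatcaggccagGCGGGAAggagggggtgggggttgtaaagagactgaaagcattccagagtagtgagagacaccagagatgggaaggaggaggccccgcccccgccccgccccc
The E2F motif of Olfml3 lies 97 to 103 bases before the start, and its window holds no SMAD motif. The windows of P2ry12 and Aif1 hold no E2F motif. Whether any of these motifs bears on a gene's response to a compound was not tested.

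Other genes of the homeostatic signature made a list of 34. Under SB431542, 5 of 34 were lower and 3 higher. Fcrls, an Fc receptor-like protein, stood at -0.95 ± 0.057, and the lysosomal protease Ctss at -0.69 ± 0.054 in the authors' deposited table. Slco2b1, an organic anion transporter, stood at -1.58 ± 0.16 in the authors' deposited table. Higher genes were Gas6, a ligand of phagocytic receptors, at 0.61 ± 0.041, and Spi1, which encodes the myeloid transcription factor PU.1, at 0.67 ± 0.073 in the authors' deposited table. Hpgds, a prostaglandin D synthase, stood at 1.01 ± 0.20 in the authors' deposited table. Over all genes tested for SB431542, 2.64% were listed as lower and 2.29% as higher.

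HLM006474 lowered 6 of these 34 genes and raised none, where 4.22% of all genes tested were listed as lower and 1.42% as higher. They included Adgrg1, an adhesion receptor that is also made by astrocytes, at -0.66 ± 0.053, Fcrls at -0.65 ± 0.057 and Slco2b1 at -1.08 ± 0.16 in the authors' deposited table. With the RUNX1 inhibitor 3 of the 34 were lower and none higher, where 2.32% of all genes tested were listed as lower and 0.605% as higher. The lower ones included Slco2b1 at -0.94 ± 0.16 and Ecscr at -0.98 ± 0.28 in the authors' deposited table. Slco2b1 was therefore listed as lower for every compound, and no member is in all 3 tables.

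On the TGF-beta axis, 20 genes for ligands, receptors, SMADs and activators, SB431542 lowered 5 and raised 1. The shares of all tested genes listed for SB431542 were 2.64% lower and 2.29% higher. The SMAD pathway feedback gene Skil stood at -1.66 ± 0.062 and the receptor kinase gene Tgfbr1 at -1.01 ± 0.071 in the authors' deposited table. Ltbp3, which binds latent TGF-beta in the matrix, had a change of -0.77 ± 0.050, and Itgav, an integrin chain that releases it, one of -0.61 ± 0.066 in the authors' deposited table. Nrros, which in mice holds latent TGF-beta on the microglial surface, rose, with a change of 1.08 ± 0.13 in the authors' deposited table. Neither of the other tables lists any of the 20, and values outside the tables were not analysed here. Of 11 genes of the colony-stimulating factor pathway, on which microglial survival depends, the tables list only Spi1, under SB431542.

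Of 24 markers shared by microglia and other macrophages, 5 were higher under SB431542 and none lower, with Cd68 at 0.72 ± 0.075, Cd53 at 0.66 ± 0.057, Cd14 at 0.99 ± 0.099 and Lcp1 at 0.78 ± 0.091 in the authors' deposited table. Cd68 is a lysosomal glycoprotein, Cd53 a leukocyte tetraspanin, Cd14 a co-receptor for endotoxin and Lcp1 a leukocyte actin-bundling protein. The other 19 are not listed, and no test compared these markers with the members. Under HLM006474, 2 of the 24 were lower and 1 higher, with Ly86 at -0.71 ± 0.075, Tlr2 at -0.84 ± 0.14 and lysozyme Lyz2 at 1.08 ± 0.18 in the authors' deposited table. None is listed for the RUNX1 inhibitor. Across all genes tested, 2.64% were listed as lower and 2.29% as higher for SB431542. For HLM006474 these shares were 4.22% and 1.42%. How the number of microglia in the cultures bears on the members' falls was not tested.

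Genes of activated microglia and of other macrophages were mixed. Under SB431542, 7 of 22 activation genes were higher and 2 lower. The chemokine Ccl4 had a change of 2.89 ± 0.23 and Ccl6 one of 2.48 ± 0.17, lipoprotein lipase Lpl one of 1.51 ± 0.14 and galectin Lgals3 one of 0.87 ± 0.060 in the authors' deposited table. The tetraspanin gene Cd9 had a change of -0.67 ± 0.045, and the osteopontin gene Spp1 one of -0.84 ± 0.071, in the authors' deposited table. HLM006474 raised 4 of the 22, among them Clec7a, a receptor for fungal glucans, at 1.03 ± 0.15, and lowered 3, among them Cd52 at -0.73 ± 0.13 in the authors' deposited table. Spp1 was the 1 gene of the 22 lower with the RUNX1 inhibitor, where 2.32% of all genes tested were listed as lower. Shares for SB431542 were 2.64% lower and 2.29% higher, and for HLM006474 4.22% lower and 1.42% higher.

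Of 24 genes of perivascular, meningeal or monocyte-derived macrophages, SB431542 raised 8 and lowered 4. The mannose receptor Mrc1 stood at 2.64 ± 0.11, the scavenger receptor Cd36 at 1.33 ± 0.087 and the lectin Clec4d at 1.65 ± 0.13 in the authors' deposited table. The 4 lower genes were Tgfbi at -1.94 ± 0.076, Fn1 at -0.87 ± 0.060, the chemokine receptor gene Ccr1 at -0.84 ± 0.14 and Siglec1 at -0.71 ± 0.13 in the authors' deposited table. Fn1 stood at 4346 normalised counts per kb, against 303 for Mrc1 and 336 for Tgfbi. Which cells made the transcripts of this list was not tested. HLM006474 raised 4 and lowered 3 of them, with Clec4d at 1.70 ± 0.13 and the sialoadhesin gene Siglec1 at -0.67 ± 0.13 in the authors' deposited table. Clec4n was the 1 gene of the 24 lower with the RUNX1 inhibitor, where 2.32% of all genes tested were listed as lower. For HLM006474 the shares were 4.22% lower and 1.42% higher. For SB431542, the 6 listed members were all lower. Of the 24 genes of other macrophages, 8 were higher, 4 lower and 12 not listed. The shares of all tested genes listed were 2.29% higher and 2.64% lower. Members and lists were chosen with results of these data known, and the contrast between them was not tested.

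**Figure D5:**
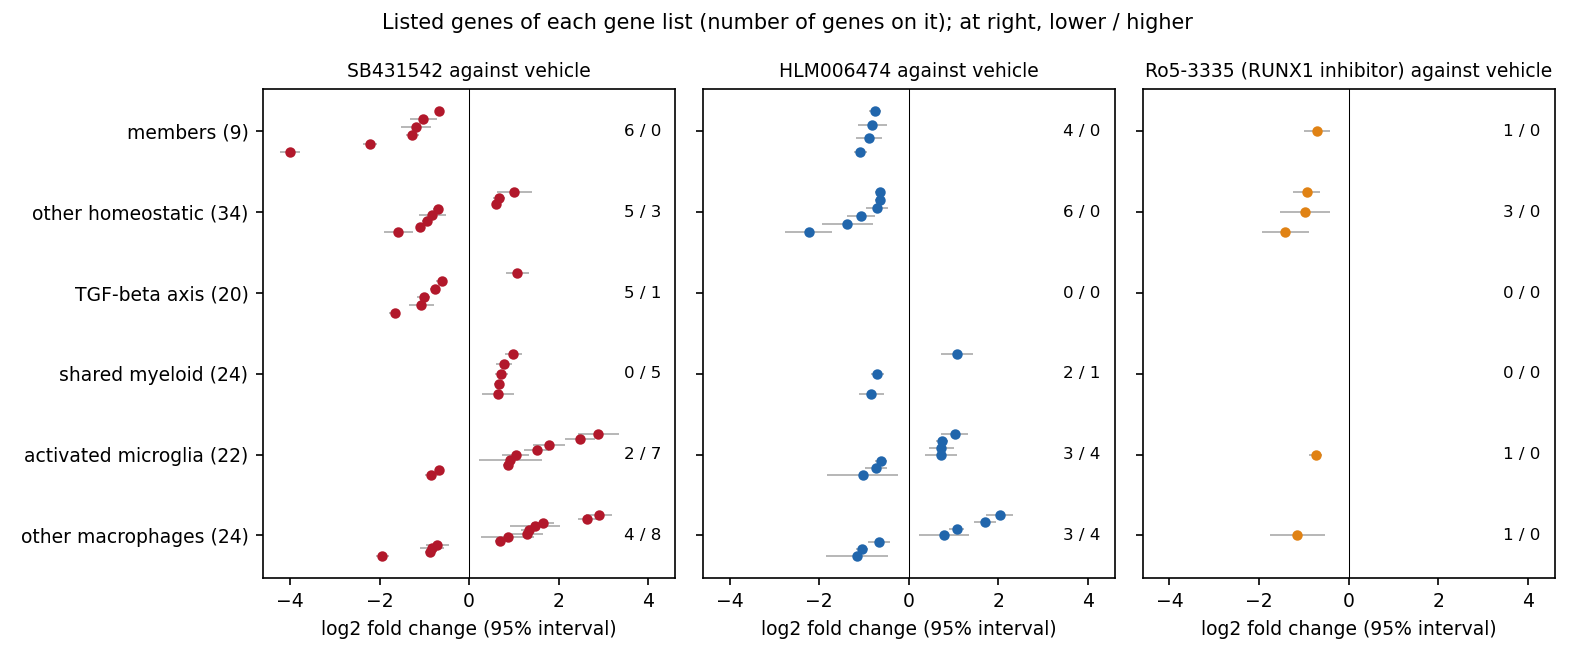
Log2 fold change (points, 95% intervals) of every listed gene on 6 gene lists, for SB431542, HLM006474 and the RUNX1 inhibitor against vehicle, with the number lower and higher at right. Under SB431542 the members show 6 lower, 0 higher and 3 not listed. The shared myeloid markers show 0 lower, 5 higher and 19 not listed. Other lists are mixed, with 5 lower and 3 higher for other homeostatic genes, 2 and 7 for activated microglia and 4 and 8 for other macrophages. The contrast between lists was not tested. TGF-beta axis genes are listed for SB431542 only.

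Markers of other cells in the cultures also moved beside the members. Of 16 astrocyte markers each table lists 1, Kcnj10 for SB431542 and Fabp7 for HLM006474 and the RUNX1 inhibitor, all lower. Under HLM006474, 7 of 12 oligodendrocyte lineage markers and 5 of 12 pericyte, smooth muscle and fibroblast markers were lower. Pdgfra is on both lists and is counted in both. The counts were 1 and 4 under SB431542 and 0 and 2 under the RUNX1 inhibitor. Shares of all tested genes listed as lower were 4.22% for HLM006474, 2.64% for SB431542 and 2.32% for the RUNX1 inhibitor. Endothelial markers were limited to Flt1, 1 of 10, under SB431542 and the RUNX1 inhibitor, and of 12 retinal neuron and Müller glia markers the RUNX1 inhibitor lowered 2 and raised 1, where 0.605% of all genes tested were listed as higher. The part of these shifts in the members' changes was not tested.

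Genes with the most similar change were sought for the 4 members listed for a pair of compounds, by the distance between log2 fold changes in those tables, among genes with a mean count of at least 100. None was close to Tmem119 over SB431542 and HLM006474. The nearest of 107 candidates, the retinol transporter gene Stra6, was 1.8 away, with a change of -2.20 ± 0.23 under SB431542 and -1.23 ± 0.22 under HLM006474 in the authors' deposited tables. F11r, Col14a1, Chst1 and Tgfbi followed at distances of 1.82 to 2.06. Olfml3 and P2ry12 had close neighbours and were among the 5 nearest to each other, at a distance of 0.0959. The calcium channel gene Cacna1c was 0.00444 from Olfml3 and 0.0918 from P2ry12, and Ltbp2, Ppfia4, Fgl2 and Zfp469 were the other neighbours of these 2 genes. Distances leave out the standard errors, which for Cacna1c were 0.188 under SB431542 and 0.185 under HLM006474, so the order of close neighbours is not resolved. Only genes listed for both compounds could be candidates. Gpr34, over SB431542 and the RUNX1 inhibitor and 65 candidates, was nearest to the phosphodiesterase gene Pde1b, at a distance of 0.0547, followed by Pipox, Gbx2, Pcdh18 and Spp1.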

How the data were processed

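Total RNA of 13 samples was made into Illumina libraries, and CASAVA 1.8, STAR 2.7, DESeq2 1.30.1 and build GRCm38 are named, per the submitters' processing notes. The 3 tables deposited by the authors hold, per the file headers, a mean normalised count (a signal level), a fold change and its error in log2 units, a Wald score and p-values, raw and adjusted. A gene's mean count is the same in every table, so 1 fit covered all groups. No values for single samples were used, the depth is unknown, and the labels name neither the read counter nor the annotation.

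The form of test foreseen for tables of fold changes was used, with the authors' calls as deposited. Numbers tested were recovered from the ratio of p to adjusted p (ranks whole within 0.02). Differences between compounds used a 2-sided z test with Benjamini-Hochberg adjustment within each pair, which leaves out the shared vehicle. The test was tried on simulated data, with no difference or a difference larger than those of Olfml3, P2ry12 and Gpr34. Smaller differences and the selection of genes by the tables' limits were not simulated. Intervals are 95% normal intervals from the authors' standard errors. Exonic lengths are the union of all GENCODE M21 exons, which understates levels of genes with long rare isoforms. All members, the 5 nearest genes of members listed for 2 or more compounds, and up to 4 genes per direction with the lowest adjusted p of each list were named, except some that are not reported here. Members and lists were chosen with earlier results of these data known. Python 3.11.15, scipy 1.17.1 and pandas 2.3.3 were used.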

Additional observations from a re-analysis of the deposited data

How the results depend on the processing

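Requiring a fold change of at least 2 left 1 member lower for HLM006474, Tmem119, and 0 for the RUNX1 inhibitor, because Aif1, Olfml3 and P2ry12 under HLM006474 and Gpr34 under the RUNX1 inhibitor changed by less, as did C1qa under SB431542, where 5 of 6 were left. The other counts of lower members stayed within 1.5 times under an adjusted p under 0.01 and mean counts of at least 21.6 or 100, and the 4 tested differences kept their side of the threshold, also with the covariance of the shared vehicle taken into account. Leaving out replicates was not run, since no values for single samples were used. No paired analysis was possible because the tables carry no columns for single samples. A gene that DESeq2 gave no p-value would also be unlisted, so the limits set for unlisted members assume that each had one.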
